A study of Homo sapiens with 6 samples.

Results

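The BEX (brain expressed X-linked) and TCEAL (transcription elongation factor A like) genes form 1 family of small X-linked genes. The 10 members described here, BEX1 to BEX5, TCEAL2, TCEAL3, TCEAL4, TCEAL8 and TCEAL9, are 10 of the 61155 gene symbols counted in the series. They were taken by symbol, and the family was selected because TCEAL2 and BEX5 fall to the floor in the knockout libraries of the comparison below. The differences of the members between genotypes are therefore given as a description, without p-values. Bulk RNA was sequenced from 3 libraries of WT H7, a widely used line of human embryonic stem cells (hESCs), and 3 libraries of S6K1-/- clone #1, made from H7 with Cas9 and a pair of guides against RPS6KB1, the gene of the kinase S6K1. Both groups were grown without feeders on Matrigel in TeSR-E8. The labels call the depletion a knockdown and give week 5 for every library, whereas the methods describe undifferentiated cells and a knockout. The knockout libraries come from 1 clone, so that the genotype and the clone cannot be told apart. Whether the replicates are separate cultures is not stated, and p-values then measure only the spread between these libraries.

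BEX and TCEAL genes arose in placental mammals from a shared ancestor and encode short proteins that lack enzymatic domains. BEX proteins act mostly as adaptors: BEX1 and BEX3 bind the neurotrophin receptor p75NTR, which NGFR encodes, and BEX2 binds a complex with the transcription factor LMO2. TCEAL proteins share sequence with the elongation factor TFIIS, and for most of them little is known of their function. Many genes of the family are abundant in brain and in neurons.

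In the GENCODE annotation of GRCh38, all 10 members lie on the long arm of the X chromosome in a pair of stretches. The first holds TCEAL2 on the plus strand (chrX:102125679-102140426) and BEX5 on the minus strand (chrX:102153708-102155977), with TCEAL6 between them. A gap of 906673 bp separates them from BEX1 (chrX:103062651-103064171, minus), BEX4 (chrX:103215108-103217246, plus), TCEAL8 (chrX:103252995-103255192, minus), BEX2 (chrX:103309346-103311007, minus), TCEAL9 (chrX:103356489-103358462, plus), BEX3 (chrX:103376395-103378164, plus), TCEAL4 (chrX:103576231-103587729, plus) and TCEAL3 (chrX:103607451-103629690, plus). The canonical transcript of every member has 3 exons, and the coding sequence lies wholly in the third. The coding sequence is 303 bases long in BEX3 and 681 in TCEAL2, the shortest and the longest of the members. The last exon makes up 75.4% to 87.1% of the transcript, so that most of each gene can be covered by reads without a splice junction. The aligner used for these data does not split reads over junctions.

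The promoters are shown because the members share a sequence there that the selection did not use. RefSeq promoter windows of GRCh38.p14, with 250 bases before and 50 after each start site, were matched for all 10 members. The word TCACGTGA, a palindrome around the E-box CACGTG, was the 8-letter word shared by most windows of the family and was searched on both strands. It was found for 6 of the 10 members and for TCEAL1, TCEAL5 and TCEAL6, the 3 further TCEAL genes with a window, against 1.18% of all genes with a window, counting a gene where any of its windows holds the word. The word was picked from these windows, so that its share among them is not an independent count. Stretches of 30 bases on the strand of the gene are given with the word in capitals:
TCEAL2: tgacgcggtgcTCACGTGAcccgcccggcg
TCEAL3: tgacgcggcgcTCACGTGAcccgccgggcg
TCEAL8: tgacgcgactcTCACGTGAccaggagtcga
TCEAL4: ggctgcggcatTCACGTGAtctgcacgggc
BEX1: acgcacggcccTCACGTGAccgggagctgc
BEX3: acgcgcggcccTCACGTGAcccagagctgc
The word starts between 81 bases (TCEAL3) and 11 bases (TCEAL4) before the start site. The stretches of TCEAL2, TCEAL3 and TCEAL8 open with the same letters. The RefSeq start of TCEAL4 lies 9284 bases from the start of the gene in GENCODE. The 6-letter E-box alone, which the longer word contains, was found for 8 of the 10 members, with BEX2 and BEX4 added, against 8.77% of all genes. BEX5 and TCEAL9 held neither word in this window. A match is a description of letters and not of a bound site.

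Some windows of the family resemble each other more than the rest. In gapped alignments, those of BEX4 and BEX2 share 257 identical bases (85.7% of the 300-base window), and those of TCEAL2 and TCEAL3 share 234 (78.0%). TCEAL6 shares 233 (77.7%) with TCEAL3 and 227 (75.7%) with TCEAL2. The next pair, TCEAL8 and TCEAL9, shares 207 (69.0%), and the least similar, TCEAL3 and TCEAL1, shares 153 (51.0%). TCEAL2 and BEX5 had no counts in any knockout library, and TCEAL3 kept most of its level (below). The 250 bases before the start site of these 3 genes are given on the strand of the gene, with the shared word in capitals where it is present, at chrX:102125429-102125678 for TCEAL2, chrX:103607713-103607962 for TCEAL3 and chrX:102155978-102156227 for BEX5:
TCEAL2: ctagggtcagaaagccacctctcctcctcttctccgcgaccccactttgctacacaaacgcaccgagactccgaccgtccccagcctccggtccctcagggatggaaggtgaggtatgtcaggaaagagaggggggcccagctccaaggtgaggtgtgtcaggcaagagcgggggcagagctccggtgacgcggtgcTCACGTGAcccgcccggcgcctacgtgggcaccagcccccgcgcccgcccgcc
TCEAL3: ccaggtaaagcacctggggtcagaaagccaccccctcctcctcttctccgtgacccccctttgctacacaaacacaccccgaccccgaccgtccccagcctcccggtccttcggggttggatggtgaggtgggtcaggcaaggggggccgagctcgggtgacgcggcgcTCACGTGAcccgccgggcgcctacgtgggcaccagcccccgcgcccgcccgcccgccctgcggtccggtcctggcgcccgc
BEX5: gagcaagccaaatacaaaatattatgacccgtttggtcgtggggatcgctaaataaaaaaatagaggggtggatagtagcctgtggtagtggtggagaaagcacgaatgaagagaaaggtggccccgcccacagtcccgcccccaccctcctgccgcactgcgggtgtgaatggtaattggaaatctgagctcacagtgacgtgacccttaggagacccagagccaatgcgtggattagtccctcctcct
The upstream bases hold 20 CpG dinucleotides in TCEAL2, 25 in TCEAL3 and 10 in BEX5. Over the whole 300-base window, TCEAL2 has 27, TCEAL3 has 30 and BEX1 has 25, against a median of 14 over all windows. The 2 windows of BEX5 have 13 and 14, close to that median. The windows of the members that kept counts in the knockout libraries ranged from 7 to 32, and those of TCEAL2 and BEX5 lay within that range. DNA methylation was not measured in these libraries.

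Library totals ranged from 21896698 to 24473013 counts. RPS6KB1 was 59.4% of its WT level in the knockout libraries, with 777 to 831 counts in WT and 438 to 464 in S6K1-/- (log2 fold change -0.75, SE 0.057, adjusted p = 2.5e-07 in the quasi-likelihood test of edgeR, adjusted by Benjamini-Hochberg over all genes). All 8 pluripotent stem cell markers were detected, and none passed an adjusted p of 0.001 in edgeR or DESeq2. At an unadjusted p of 0.05 in edgeR, 3 were lower and 0 higher, beside 14.5% and 11.8% of all genes. The summed level of the 8 markers was 5122 to 5344 CPM (counts scaled by library size) in WT and 5024 to 5040 in S6K1-/- hESCs. The 2 most abundant of them, PODXL and LIN28A, were at 1450 and 1170 CPM in WT and at 1340 and 1215 CPM in S6K1-/-.

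All 10 members were detected in WT hESCs, at levels that spanned more than 100-fold per unit of transcript length. On the scale of CPM per kb of transcript, BEX3 was the most abundant, at 348 ± 18.1 (SD, n = 3), which was 44.4% of the summed level of the members. TCEAL8 followed at 128 ± 5.18, and TCEAL4, TCEAL9 and BEX4 lay at 71.6 ± 5.14, 70.9 ± 4.47 and 69.4 ± 4.03. TCEAL4, TCEAL9 and BEX4 did not differ beyond their spread, whereas BEX3 and TCEAL8 did not overlap with their neighbours in this order. BEX2 (39.2 ± 3.63) and BEX1 (34.4 ± 1.31) were lower, and TCEAL3 lower again (14.0 ± 1.05). TCEAL2 (6.58 ± 0.410) and BEX5 (2.91 ± 0.208) were the members with the lowest levels in WT cells. TCEAL2 made up 0.838% of the summed level.

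The comparison of S6K1-/- with WT hESCs asks how the loss of S6K1 changes expression in stem cells. In it, TCEAL2 and BEX5 had no count in any knockout library, BEX1 and BEX2 were at 50.8% and 68.1% of their WT level, and the 6 other members were at 78.3% to 94.3%. By edgeR with an adjusted p of 0.001 over all genes, 4 of the 10 members were called lower (TCEAL2, BEX5, BEX1 and BEX2), beside 2.54% of the 19521 genes tested. None was called higher in edgeR or DESeq2, beside 1.42% of all genes in edgeR. At an unadjusted p of 0.05 in edgeR 9 were lower and none higher, beside 14.5% and 11.8% of all genes. In 9 of the 10 members every knockout library was below every WT library, which was so in 16.7% of all genes. Since TCEAL2 and BEX5 passed the filter on low counts only through the WT libraries and since the family was selected on this contrast, nothing is read from these counts. The median log2 fold change of the members was -0.27, beside -0.002 over all genes tested. In bulk RNA, fewer cells of a type and less RNA per cell cannot be told apart.

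TCEAL2 is a TFIIS-like gene of unknown function. Its counts were 167, 191 and 169 in the WT libraries and 0 in each of the 3 knockout libraries. This corresponds to 7.30 ± 0.455 CPM (SD, n = 3) in WT, and against a floor of 3 counts per library it was at least 56.0-fold lower in S6K1-/- hESCs. The floor covers counting error only. BEX5, a BEX gene of little-known function, lies next to TCEAL2, beyond TCEAL6 on the same side of the gap. It had 52, 60 and 51 counts in WT and 0 in each knockout library, so that 2.26 ± 0.162 CPM became at least 17.3-fold lower. In both genes the groups were fully separated, and the 3 WT libraries were close to each other. The last exon of TCEAL2 is 91.9% identical to TCEAL4 over 421 alignment columns, but no count was assigned to TCEAL2 in the knockout libraries, in which TCEAL4 had 1790 to 2114.

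BEX1 and BEX2 are near copies of each other, with 88.2% identity over an alignment of their last exons of 643 columns, gaps included, and reads between them may have been split. BEX1, the p75NTR-binding adaptor, had 638, 679 and 656 counts in WT and 342, 278 and 338 in S6K1-/- libraries. The level was 27.4 ± 1.04 CPM in WT and 13.9 ± 2.04 in S6K1-/- (log2 fold change -0.98, SE 0.087). The lowest WT library was well above the highest knockout library, and the knockout libraries varied more, with a coefficient of variation of 14.7% against 3.81%. BEX2, the partner of LMO2, had 766, 899 and 722 counts in WT and 500, 499 and 552 in S6K1-/-. Its level was 33.0 ± 3.06 CPM in WT and 22.5 ± 2.49 in S6K1-/- (log2 fold change -0.56, SE 0.082). The groups did not overlap, but BEX2 was no longer called without knockout replicate 1 (-0.52) or without knockout replicate 2 (-0.50). The ratio of BEX1 to BEX2 counts within a library was 0.832 ± 0.0767 in WT and 0.618 ± 0.0636 in S6K1-/-, without overlap, so that the difference was larger for BEX1 than for BEX2.

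BEX3 (also NGFRAP1) is an adaptor in the cell death signal of p75NTR, and BEX4 is known to bind microtubules. BEX3 had 6794, 7327 and 6253 counts in WT and 5613, 6344 and 5671 in S6K1-/-. Although these counts overlap, the levels in CPM did not, at 282 ± 14.7 CPM in WT and 255 ± 13.9 in S6K1-/- (log2 fold change -0.15, SE 0.049). BEX4 had 2111, 2200 and 2252 counts in WT and 1861, 1904 and 1778 in S6K1-/-, or 91.1 ± 5.29 and 80.2 ± 1.33 CPM (log2 fold change -0.18, SE 0.046). Its groups were separated, and the difference was about as large as in TCEAL8 and TCEAL9.

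TCEAL8 and TCEAL9 are short TCEAL genes, and TCEAL9 (also WBP5) was named for binding WW domains. For TCEAL8, the counts were 3500, 3832 and 3502 in WT and 3085, 3033 and 2945 in S6K1-/-, or 150 ± 6.08 and 131 ± 4.31 CPM (log2 fold change -0.20, SE 0.043). TCEAL9 gave 1685, 1919 and 1660 counts in WT and 1448, 1524 and 1441 in S6K1-/-, or 72.9 ± 4.6 and 63.8 ± 2.27 CPM (log2 fold change -0.19, SE 0.050). The groups did not overlap in either gene. The ratio of BEX4 to TCEAL8 counts was 0.607 ± 0.0346 in WT and 0.612 ± 0.0140 in S6K1-/-, a difference smaller than its spread.

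TCEAL3 and TCEAL4 are the last members along the chromosome. TCEAL3 had 369, 386 and 315 counts in WT and 255, 310 and 239 in S6K1-/-, or 14.8 ± 1.11 and 11.6 ± 1.17 CPM (log2 fold change -0.35, SE 0.086). The groups were separate by a narrow margin. TCEAL3 overlaps TCEAL1 on the same strand, and its last exon is 96.5% identical over 848 alignment columns to TCEAL6, which had at most 3 counts in any library. For TCEAL4, 2190, 2389 and 1956 counts in WT stood beside 2001, 2114 and 1790 in S6K1-/- libraries. The levels of 90.4 ± 6.50 and 85.2 ± 3.03 CPM overlapped, and the 95% interval of its log2 fold change, from -0.19 to 0.02, included 0.

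Summed over the 10 members, the level was 771 ± 32.4 CPM in WT and 663 ± 17.9 in S6K1-/-, or 86.0% of WT. The 5 BEX genes (85.2%) and the 5 TCEAL genes (86.9%) left nearly the same share. TCEAL2 and BEX5 together contributed 9.56 ± 0.612 CPM to the sum in WT and none in S6K1-/-. BEX3 made up 44.4% of the length-scaled level of the members in WT and 46.8% in S6K1-/-. The Spearman rho between WT level and log2 fold change was 0.71 over the 8 members with counts in S6K1-/- libraries. It was 0.84 over all 10 members and 0.54 over the 13 family genes tested, but TCEAL2 and BEX5, the members with the lowest WT levels, enter both of these with the very values on which the family was selected. These are descriptions over genes that share the same 6 libraries, and the WT values enter both axes.

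The family holds 4 further genes, which the selection did not use. In edgeR, with p-values adjusted over all genes, 2 of the 3 tested were lower, beside 2.54% of all genes. TCEAL5 had 150, 174 and 133 counts in WT and 76, 84 and 50 in S6K1-/- (log2 fold change -1.06, SE 0.147, adjusted p = 0.00014 by edgeR). TCEAL7, known as a gene silenced in ovarian tumours, had 258, 259 and 244 counts in WT and 122, 137 and 157 in S6K1-/- (log2 fold change -0.81, SE 0.107, adjusted p = 9.4e-05 by edgeR). TCEAL1 overlapped between the groups, with 105 to 145 counts in WT and 102 to 133 in S6K1-/- (log2 fold change -0.03, SE 0.138, adjusted p = 0.92 by edgeR). TCEAL5 is 92.2% identical to TCEAL3 over 817 alignment columns, and the ratio of TCEAL3 to TCEAL5 counts was 2.35 ± 0.122 in WT and 3.94 ± 0.745 in S6K1-/-, without overlap. TCEAL6, between TCEAL2 and BEX5, had too few counts to be tested.

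Within 500 kb of a member, 22 genes that are not members were tested, and 5 were lower by edgeR at an adjusted p of 0.001, beside 2.54% of all genes. Without TCEAL1, TCEAL5 and TCEAL7, 3 of 19 were lower, ZMAT1 and ARMCX2 among them. None of the 19 was higher in edgeR or DESeq2, with 7 lower and 1 higher at an unadjusted p of 0.05, beside 14.5% and 11.8% of all genes. The gene nearest to TCEAL2 that was tested on its left, ZMAT1, encodes a zinc finger protein and lies on the minus strand. Its lowest coordinate, the far end of the gene, is 243 kb before the start of TCEAL2. ZMAT1 had 84, 83 and 82 counts in WT and 26, 16 and 15 in S6K1-/- (log2 fold change -2.06, SE 0.195, adjusted p = 3.0e-06 by edgeR). On the right, the first gene tested after BEX5 was TMSB15A, a thymosin gene 388 kb after the start of TCEAL2, with 482 to 501 counts in WT and 443 to 500 in S6K1-/- (log2 fold change 0.02, SE 0.075, adjusted p = 0.90 by edgeR). ARMCX2, an armadillo repeat gene, was lower by a small amount (log2 fold change -0.33, SE 0.044, adjusted p = 0.00010 by edgeR). It did not pass without knockout replicate 2 or without knockout replicate 3, and 3 of the 22 genes (TCEAL5, TCEAL7 and ZMAT1) were then called lower. Of the 19 genes outside the family, 15 (78.9%) had a log2 fold change below 0, beside 50.6% of all genes tested, with a median of -0.11.

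**Figure D1:**
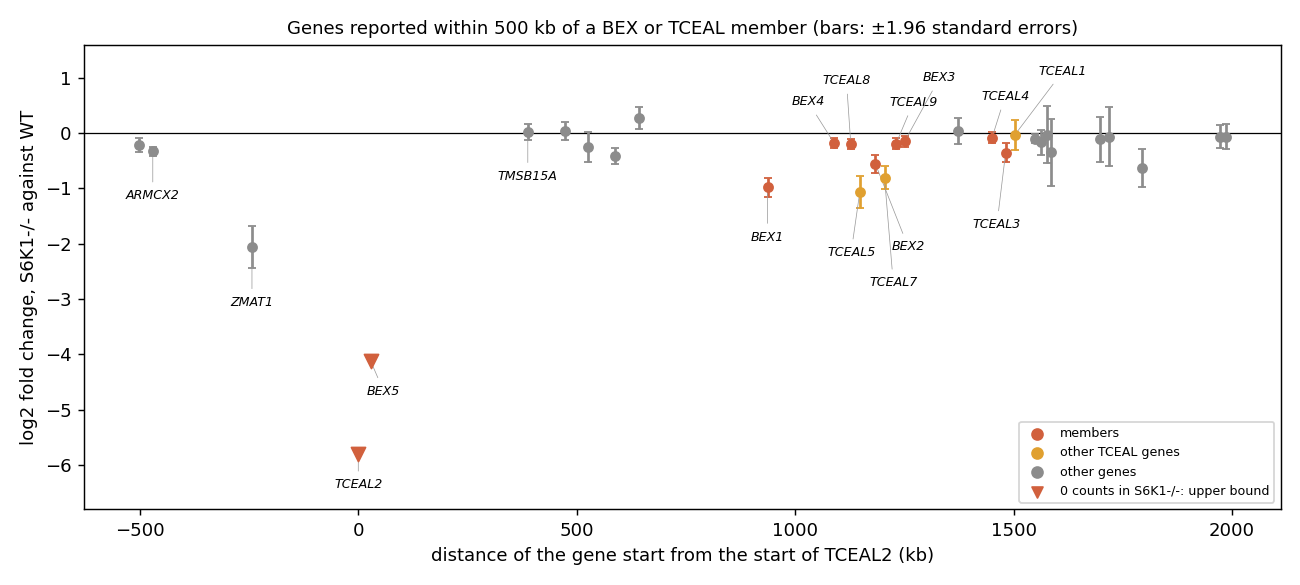
Log2 fold change of S6K1-/- against WT (y axis) of genes tested within 500 kb of a member, with 95% intervals as bars. The x axis gives the distance in kb of the lowest coordinate of each gene from that of TCEAL2, on either strand. Members are red, other TCEAL genes yellow and other genes grey. Triangles are upper bounds for the genes with 0 counts in S6K1-/-. TCEAL2 and BEX5 lie between ZMAT1 (-2.06) and TMSB15A (0.02), and BEX1, TCEAL5, TCEAL7 and BEX2 are the lowest of the family in the second stretch.

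Without the members, the X chromosome had 29 of 610 genes lower (4.75%) and 27 higher (4.43%) by edgeR, beside 2.81% and 1.47% on the other chromosomes. The median log2 fold change of the X chromosome genes was -0.006, close to that of all genes. The 8 members of the second stretch had a median of -0.19.

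The pattern of TCEAL2 and BEX5, counts in every WT library and almost none in any knockout library, was shared by few genes. Of 16877 genes with a WT mean of at least 1 CPM, 13 had at most 3 counts in every knockout library, and 9 of these were ZNF genes, which encode zinc finger proteins. TCEAL2 and BEX5 were the 2 of these 13 genes on the X chromosome, among 545 X chromosome genes at that level, and AL512358.2, another of the 13, could not be placed on a chromosome. The reverse pattern was found in 4 genes. By Euclidean distance between log2 CPM profiles over the 6 libraries, the genes most like TCEAL2 were ZNF420 (distance 0.200, 182 to 187 counts in WT and 0 in S6K1-/-), ZNF502 (0.826) and ZNF585A (0.912). Those most like BEX5 were ZNF222 (0.607, 47 to 57 counts in WT and at most 1 in S6K1-/-), ZNF284 (1.05) and ZNF285 (1.08). These distances include the knockout values on which TCEAL2 and BEX5 were selected. The nearest genes therefore had to be near 0 in S6K1-/- as well, and nothing further is read from the match.

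Genes tied to BEX and TCEAL proteins by binding, shared sequence or position are given next. Over all genes, edgeR called 2.54% lower and 1.42% higher at an adjusted p of 0.001. Since these shares are small, the absence of calls in such short lists is not read as a result. The counts at an unadjusted p of 0.05 stand beside 14.5% of all genes lower and 11.8% higher. Of 11 neurotrophin receptor genes and partners tested, none passed an adjusted p of 0.001 in edgeR or DESeq2, with 1 lower and 1 higher at an unadjusted p of 0.05. NGFR itself, the receptor bound by BEX1 and BEX3, had 624 to 639 counts in WT and 617 to 755 in S6K1-/-, or 26.2 and 30.1 CPM without overlap (log2 fold change 0.20, adjusted p = 0.038 by edgeR). Of 11 genes of the LMO2 and LDB1 complex, none passed in edgeR or DESeq2, with 3 lower and 2 higher at an unadjusted p of 0.05. LMO2 itself had 51, 30 and 48 counts in WT and 22, 23 and 27 in S6K1-/-, with levels in CPM that overlapped (log2 fold change -0.78, SE 0.240, adjusted p = 0.043 by edgeR). Of 19 TFIIS and elongation factor genes, none passed in either tool, with 1 lower and 2 higher at an unadjusted p of 0.05. Among the ARMCX and GPRASP genes, which lie beside the family on the X chromosome, 1 of 8 tested was lower (ARMCX2) and none higher in edgeR or DESeq2, with 4 lower and 0 higher at an unadjusted p of 0.05.

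Since many of the members are abundant in neurons, the markers of neurons and of other cell types are given beside them. Of 10 neuron markers 9 were tested, and 2 were lower by edgeR: STMN2 (49.9 CPM in WT and 15.3 in S6K1-/-, log2 fold change -1.70, adjusted p = 1.4e-11) and DCX (11.1 and 7.65 CPM, log2 fold change -0.54, adjusted p = 0.00049). DESeq2 called 1 of the 9. At an unadjusted p of 0.05, 6 of the 9 were lower and 2 higher, with a median log2 fold change of -0.80. ELAVL4 had 9 to 12 counts in WT and 0 in each knockout library. The summed level of the 10 was 203 to 216 CPM in WT and 175 to 180 in S6K1-/-, and the most abundant, NEFL and NEFM, were at 69.97 and 66.02 CPM in WT and at 75.7 and 72.6 in S6K1-/-. The neuroectoderm markers summed to 32.2 to 35.1 CPM in WT and 36.8 to 41.7 in S6K1-/-, and PAX6 was higher (4.47 and 7.58 CPM, adjusted p = 0.00027 by edgeR), while all 3 tested were higher at an unadjusted p of 0.05. Of 7 mesenchyme markers, 3 were tested and 2 were lower by edgeR, COL1A1 (80.2 and 23.2 CPM, adjusted p = 7.0e-12) and COL1A2 (60.4 and 42.6 CPM, adjusted p = 2.5e-06), and DCN was at 0 throughout. At an unadjusted p of 0.05 all 3 were lower. The sum of the 7 was 139 to 145 CPM in WT and 65.8 to 67.6 in S6K1-/-, nearly all of it from COL1A1 and COL1A2. COL3A1, LUM and TWIST1 had at most 3 counts in any library. No mesendoderm marker (16.5 to 20.5 CPM summed in WT, 16.7 to 17.5 in S6K1-/-) passed in edgeR, with 2 lower and 1 higher at an unadjusted p of 0.05 and 1 called lower by DESeq2. Likewise no amnion or trophoblast marker (9.00 to 10.6 and 6.48 to 6.85 CPM) passed in edgeR or DESeq2, with 1 lower at an unadjusted p of 0.05. The part of these cell types in the values of the members was not tested.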

How the data were processed

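RNA of H7 hESCs was sequenced as stranded paired-end mRNA libraries, 3 of WT and 3 of S6K1-/- cells. According to the methods and the submitters' processing notes, the authors trimmed reads with Trim Galore (0.6.5), aligned them to GRCh38 with Bowtie2 (2.4.5), and deposited whole-number counts per gene, without normalization, from featureCounts. Bowtie2 does not align over splice junctions. The strand setting, the treatment of reads with several matches and the annotation release are not given in the sources used here. A table of the authors' own comparison was also deposited, with mean normalized counts, log2 fold changes, standard errors, test statistics and p-values, which was not used.

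Groups were taken from the labels and columns from their names. Genes were filtered with filterByExpr, scaled by TMM and tested with edgeR's quasi-likelihood test (edgeR 4.0.16, R 4.3.3), genotype as the sole term, Benjamini-Hochberg adjustment over 19521 genes and the study's threshold of 0.001. CPM used TMM-scaled library sizes, and levels were divided by the canonical transcript length (GENCODE 44) where genes were compared. Totals were 21896698 to 24473013 counts. Near copies of last exons were sought in GRCh38 with blastn 2.17.0 and kept from 100 aligned bases. Promoters came from the RefSeq table (35116 windows), which has no entry for TCEAL7. The steps were tested on simulated data. The members and the lists were chosen with earlier results of these data known. Genes were named by rule. These were the family, RPS6KB1, and genes past the threshold in a list or within 500 kb of a member (at most 5 per list). The 3 nearest profiles (prior count 2) to TCEAL2 and BEX5 were also named. The 2 most abundant markers were named for the pluripotent stem cell, neuron and mesenchyme lists only. NGFR, LMO2, ELAVL4, DCN, COL3A1, LUM, TWIST1 and TMSB15A were added after their values were seen. A gene that the rule would name is not reported here. The alternatives were DESeq2's size factors, its Wald test (DESeq2 1.42.0), no filter, at least 10 counts in every library, a replicate block, each library left out, and an adjusted p of 0.05.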

Additional observations from a re-analysis of the deposited data

How the results depend on the processing

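The log2 fold change of each member stayed below 0 under all alternatives that gave one. The 4 members called lower were the same under DESeq2's size factors and its Wald test. Since the family was selected on the contrast of S6K1-/- with WT, the member calls are described here and not read as support. With at least 10 counts in every library, TCEAL2 and BEX5 were no longer tested, since they have 0 counts in S6K1-/- libraries, and 2 members were called. Without a filter, TCEAL3 and TCEAL8 were called as well, and the calls were 982 genes lower and 591 higher (496 and 278 with the filter), 16 genes of the lists (8) and 100 X chromosome genes (60); the cause was not tested. At an adjusted p of 0.05, 8 members were called lower, with 1622 genes lower and 1067 higher, 26 genes of the lists, 8 genes within 500 kb of a member and 149 X chromosome genes.

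With each library left out in turn, 3 or 4 members were called, and BEX2 was lost without knockout replicate 1 or 2. The genes called lower ranged from 313 (without knockout replicate 3) to 445, those called higher from 175 (without knockout replicate 1; 179 without knockout replicate 2) to 235, genes of the lists from 5 (without knockout replicate 2 or 3) to 9, genes within 500 kb from 3 to 5, and X chromosome genes from 45 to 56. Fewer samples entered these fits.

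The replicate numbers did not pair the libraries (correlations of 0.0017 to 0.032, and 1 of 3 libraries correlated best with its own number). With the replicate block, 4 members, 423 genes lower, 241 higher, 8 genes of the lists, 5 genes within 500 kb and 51 X chromosome genes were called, and the log2 fold change of RPS6KB1 was -0.75. TCEAL2 and BEX5 were too low in WT for folds beyond the bounds given to be resolved at this depth.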
